A study of Homo sapiens with 48 samples.

Results

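The genes described here are 33 human genes that make cholesterol and fatty acids or control that synthesis, grouped by pathway step. For each gene, the brightest Affymetrix U133 Plus 2.0 probe set annotated with that gene's symbol alone was taken, out of 19775 genes with such a probe set. Probe sets of this kind were found for 30 of the 33 genes, and all 30 lay above the signal of 154.1 that a gene needed to be tested, with signals between 486 and 15600. FDFT1, CYP51A1 and FADS1 were not analysed here, because no probe set carried their symbol alone. The 30 genes comprised 7 enzymes of the mevalonate pathway and 8 of the 10 listed enzymes from squalene to cholesterol. The others were 8 genes of control, uptake and transport and 7 of the 8 listed genes of fatty acid and glycerolipid synthesis.

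The cells were BEAS-2B, a virus-transformed human bronchial epithelial line, grown for 3 days with epidermal growth factor, pituitary extract and antibiotics, and then for 24 h without those supplements. Confluent cells were given vehicle, Ind/GSK or GS-5759 for 1, 2, 6 or 18 h, with 4 replicates in each of the 12 groups. Ind/GSK is indacaterol, a β2-adrenoceptor agonist, with GSK 256066, an inhibitor of the phosphodiesterase PDE4, both at 10 nM, and GS-5759 at 10 nM is 1 molecule with both activities. All 12 groups shared the line, the medium and the supplement-free period, and a single line gives no measure of how primary airway cells would respond.

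Cholesterol is built from acetyl-CoA through mevalonate, the isoprenoids and squalene, then lanosterol, and fatty acids from acetyl-CoA through malonyl-CoA. In both branches the enzyme genes are switched on by the SREBP transcription factors, which SCAP escorts from the endoplasmic reticulum to the Golgi for cleavage when sterols are low, and which INSIG proteins hold back when sterols are plentiful. Agonists of the β2-adrenoceptor raise cyclic AMP and inhibitors of PDE4 slow its breakdown, so both treatments act on the same second messenger.

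The 12 arrays with replicate number 3 stood apart from the other 36. Signal for KRT5, a basal keratin, ran from 29500 to 36300 in the arrays numbered 3 and from 108 to 277 in all others. Over the 30 lipid genes the deviations of the arrays numbered 3 from their group means averaged 0.52 on the log2 scale for SREBF1, -0.35 for TM7SF2 and -0.31 for STARD4. Of 7 epithelial markers, 5 lay above the tested signal, and EPCAM had a mean signal of only 104. No leukocyte, adipocyte or hepatocyte marker lay above it, COL1A1 was the single fibroblast marker of 5 that did, and PECAM1 the single endothelial one of 4. The cAMP-responsive genes SIK1 and NR4A1 rose at 2 h with both treatments, SIK1 by 2.58 with Ind/GSK and 2.74 with GS-5759 on the log2 scale (limma, adjusted p = 1.74e-05 and 5.32e-06). In these bulk samples, fewer cells with a transcript and less transcript per cell cannot be told apart. Since the labels do not say whether replicates were separate cultures, a p-value here speaks only of how these particular samples vary.

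Of 1, 2, 6 and 18 h, only 2 h and 6 h gave calls against vehicle among the lipid genes. Calls at single times do not test a change between times, which was tested separately below. NPC1, INSIG2 and LPIN1 rose at 2 h, and 7 enzymes of cholesterol synthesis fell at 6 h while NPC1 was still called higher than vehicle. No gene of the set was called at 1 h or at 18 h. Fold changes below come from log2(signal + 16), and a gene was called when limma's p-value, adjusted by Benjamini-Hochberg over the 11865 genes tested, was under 0.05. At 1 h, 0 of the 30 genes were called with Ind/GSK, where 2.47% of all genes tested were called, and 0 with GS-5759, where 0.32% were.

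**Figure D1:**
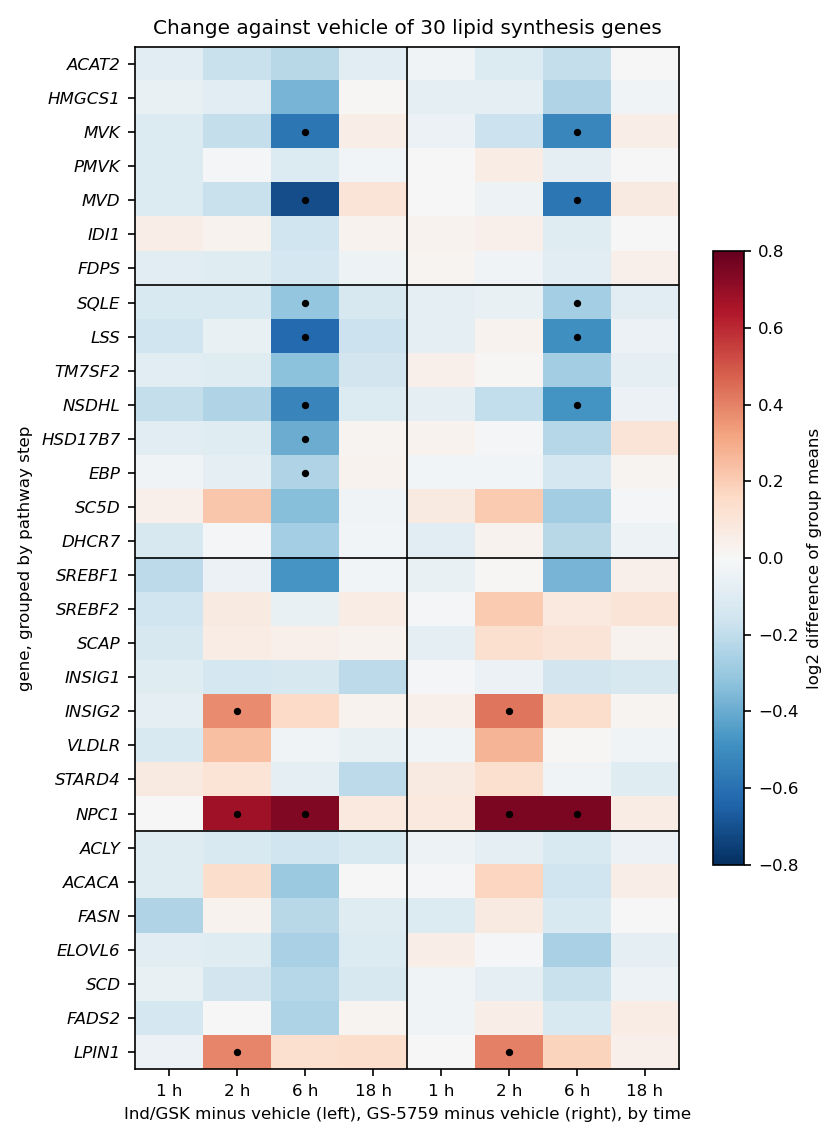
Log2 difference of each treatment from vehicle for the 30 measured genes (rows, grouped by pathway step) at 1, 2, 6 and 18 h, with Ind/GSK on the left and GS-5759 on the right. Blue is lower and red higher than vehicle, and a black dot marks an adjusted p under 0.05. Dots appear at 2 h for INSIG2, NPC1 and LPIN1 and at 6 h for NPC1 and the sterol enzymes, and none at 1 or 18 h.

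At 2 h the genes that rose were NPC1, INSIG2 and LPIN1, with each of the treatments. That is 3 of 30 risen, where 1.69% of all genes tested rose with Ind/GSK and 1.97% with GS-5759, and 0 fallen, where 2.81% and 1.08% fell. Groups that did not overlap, all treated arrays above all vehicle arrays, were seen for the same 3 genes with either treatment, against 2.27% and 3.46% of all genes. In the other direction NSDHL and SCD lay wholly below vehicle with Ind/GSK, SCD at 8250 to 9260 against 9270 to 10200, and no gene did with GS-5759, where 6.35% and 5.18% of all genes did. When only the arrays of each comparison were fitted, NPC1 alone stayed called at 2 h, where 0.666% and 1.01% of all genes were called. The 2 comparisons share the vehicle arrays, so they are not independent.

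NPC1 encodes the lysosomal membrane protein that exports cholesterol released from lipoproteins. INSIG2 encodes an endoplasmic reticulum protein that retains the SCAP-SREBP complex there. LPIN1 encodes lipin 1, a phosphatidate phosphatase of glycerolipid synthesis that also acts as a transcriptional coregulator. Their promoters are shown because these were the genes called at 2 h. Each sequence holds the 250 bases before the RefSeq transcription start in GRCh38.p14, 5′ to 3′ on the gene's strand, with NPC1 at chr18:23586507-23586756 on the minus strand, INSIG2 at chr2:118088221-118088470 and LPIN1 at chr2:11746382-11746631, both on the plus strand. Capitals mark matches on either strand to CCAAT, the box bound by NF-Y, a factor that works beside SREBP, to CGTCA, the short form of the cyclic AMP response element, to the full element TGACGTCA, which contains CGTCA, to CACGTG, an E-box, and to TCACNCNAC, a loose form of the sterol regulatory element that contains the stricter TCACNCCAC.
NPC1: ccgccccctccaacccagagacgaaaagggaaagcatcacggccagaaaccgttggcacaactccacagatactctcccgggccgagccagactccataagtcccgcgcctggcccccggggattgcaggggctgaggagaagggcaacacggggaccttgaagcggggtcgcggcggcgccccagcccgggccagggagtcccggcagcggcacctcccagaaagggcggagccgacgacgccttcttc
INSIG2: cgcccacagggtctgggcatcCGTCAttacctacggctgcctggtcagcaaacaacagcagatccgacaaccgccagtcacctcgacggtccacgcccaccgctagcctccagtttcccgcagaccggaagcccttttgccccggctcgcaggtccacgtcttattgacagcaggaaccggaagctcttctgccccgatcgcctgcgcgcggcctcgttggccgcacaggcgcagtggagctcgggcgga
LPIN1: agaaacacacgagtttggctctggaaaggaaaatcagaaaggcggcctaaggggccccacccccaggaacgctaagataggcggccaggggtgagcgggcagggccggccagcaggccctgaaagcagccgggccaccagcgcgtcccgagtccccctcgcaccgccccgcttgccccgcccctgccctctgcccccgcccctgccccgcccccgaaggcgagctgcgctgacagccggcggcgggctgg
Over the window of 300 bases that ends 50 bases after the start, NPC1 and LPIN1 had no match to any of these letters. INSIG2 had a single CGTCA, a sequence that 25% of all 27305 RefSeq promoter windows held.

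In vehicle arrays at 2 h, the NPC1 signal was 2710, 2850, 2660 and 2890 in replicates 1 to 4. It was 4930, 4650, 3870 and 4470 with Ind/GSK and 5300, 4760, 3930 and 4820 with GS-5759. Every treated array was above every vehicle array, and replicate 3 was the lowest of each group. The difference was 0.68 ± 0.12 (SE, n = 4 against 4) on the log2 scale with Ind/GSK, 1.60-fold (limma, adjusted p = 0.000236), and 0.75 ± 0.12 with GS-5759, 1.68-fold (adjusted p = 5.3e-05).

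NPC1 was called at 6 h as well. At that time its vehicle signal was 2940, 2520, 2460 and 2730, against 5590, 4180, 4100 and 4130 with Ind/GSK and 5610, 4460, 3900 and 4060 with GS-5759. The groups again did not overlap, and replicate 1 was the highest in each of the 3. The log2 difference was 0.74 ± 0.12 and 0.75 ± 0.12 (limma, adjusted p = 8.78e-05 and 0.000125). Both 6 h calls were lost with only the compared arrays in the fit (0.74 and 0.75, adjusted p = 0.0766 and 0.0675). At 18 h the means were 3350 ± 521 with vehicle, 3530 ± 469 with Ind/GSK and 3460 ± 403 with GS-5759 (SD, n = 4), and the groups overlapped. NPC1 is also read by 3 dimmer probe sets with mean signals of 18.4 to 144, and of these 217584_at differed from vehicle at 2 h by 0.96 and 1.10 and 238568_s_at by 0.36 and 0.30 with Ind/GSK and GS-5759. At 6 h 217584_at differed by 0.26 and 0.27 and 238568_s_at by 0.40 and 0.42, less than the brightest set. The dimmest, 238873_at, differed by -0.21 and -0.09 at 2 h, opposite in sign to the others, and by 0.17 and 0.16 at 6 h. Already at 1 h 217584_at differed by 0.45 and 0.62, whereas 238568_s_at differed by -0.11 and 0.03 and 238873_at by -0.10 and -0.03.

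INSIG2 rose less. Its vehicle signal at 2 h was 1150, 1240, 1100 and 1320, against 1780, 1460, 1410 and 1650 with Ind/GSK and 1750, 1720, 1350 and 1690 with GS-5759. All 8 treated arrays lay above the 4 vehicle arrays, with replicate 3 the lowest in every group. On the log2 scale it rose by 0.38 ± 0.10 with Ind/GSK (limma, adjusted p = 0.0134) and 0.43 ± 0.10 with GS-5759 (adjusted p = 0.00536). The Ind/GSK call was lost without vehicle replicate 3 (0.34, adjusted p = 0.0586) or Ind/GSK replicate 1 (0.32, adjusted p = 0.0748), and both calls with only the compared arrays in the fit (adjusted p = 0.156 and 0.121). At 6 h the differences were 0.15 and 0.14, with overlapping groups (adjusted p = 0.486 and 0.619).

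LPIN1 had vehicle signals of 3210, 3820, 3920 and 4320 at 2 h. Signals were 4500, 5130, 4980 and 5390 with Ind/GSK and 4690, 5090, 4880 and 5430 with GS-5759. The lowest treated array, Ind/GSK replicate 1, was above the highest vehicle array, replicate 4. LPIN1 rose by 0.39 ± 0.09 and 0.40 ± 0.09 on the log2 scale (limma, adjusted p = 0.00796 and 0.00802). Both calls were lost without vehicle replicate 1 (0.31 and 0.32, adjusted p = 0.0574 and 0.0734) and with only the compared arrays in the fit (0.39 and 0.40, adjusted p = 0.169 and 0.134). The second LPIN1 probe set, 212272_at, differed by 0.50 and 0.58 and the third, 212276_at, by 0.30 and 0.36.

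**Figure D2:**
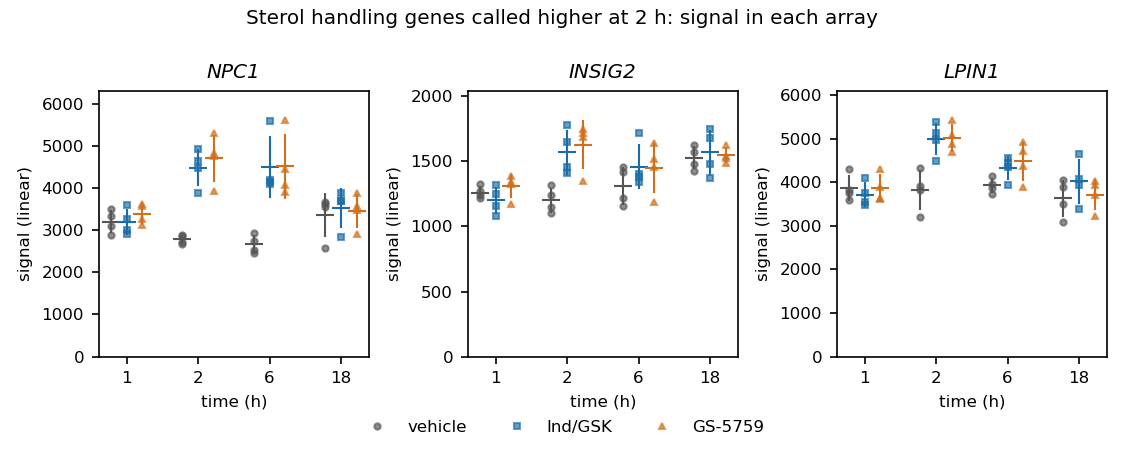
Linear signal of NPC1, INSIG2 and LPIN1 in each of the 48 arrays against time, with vehicle (circles), Ind/GSK (squares) and GS-5759 (triangles). Bars are the mean ± SD of 4 replicates. At 2 h all treated arrays lie above all vehicle arrays in the 3 panels, and at 6 h only in the NPC1 panel.

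Other genes of control and uptake did not pass the threshold at 2 h. VLDLR, a lipoprotein receptor, differed from vehicle by 0.24 with Ind/GSK and 0.27 with GS-5759, and SREBF2, which encodes SREBP-2, by 0.07 and 0.21. Samples with the same replicate number deviated together, so a fit with the replicate number as a block was also made. With this block 4 genes rose and 2 fell with Ind/GSK at 2 h and 5 rose with GS-5759, where 14.6% and 11.1% of all genes tested were called. The added genes were VLDLR (adjusted p = 0.0095 and 0.00509), SREBF2 with GS-5759 (0.0207), and ACAT2 and MVK, which fell by 0.18 and 0.19 with Ind/GSK (limma, adjusted p = 0.0107 and 0.0214). At 1 h the block gave 1 call, SREBF2 with Ind/GSK at -0.16 (adjusted p = 0.0456), where 22.4% of all genes were called.

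At 6 h the enzymes of cholesterol synthesis were lower. With Ind/GSK 7 of the 30 genes fell, MVK, MVD, SQLE, LSS, NSDHL, HSD17B7 and EBP, where 3.73% of all genes tested fell, and 1 rose, NPC1, where 1.28% rose. With GS-5759 5 fell, MVK, MVD, SQLE, LSS and NSDHL, where 0.615% of all genes fell, and NPC1 rose, where 1.26% did. The 6 genes called with both treatments were 6 of the 8 called with Ind/GSK and 6 of the 6 called with GS-5759. The vehicle arrays are common to both comparisons.

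Each of the 7 fallen genes was an enzyme of the sterol branch. All 7 mevalonate genes and all 8 genes from squalene to cholesterol had lower means than vehicle at 6 h with each treatment. Of all 11865 genes tested, 7598 were lower than vehicle with Ind/GSK and 5810 with GS-5759. The median log2 difference was -0.22 and -0.19 for the mevalonate genes, -0.34 and -0.27 from squalene to cholesterol, -0.04 and 0.05 for control, uptake and transport, and -0.23 and -0.12 for the fatty acid genes, with Ind/GSK and GS-5759 in that order. Over the 30 genes it was -0.23 and -0.16, while the median of all genes tested was -0.05 and 0. Groups that did not overlap, with treated arrays lower, were seen for 10 of the 30 genes with Ind/GSK and 9 with GS-5759, against 7.17% and 4.3% of all genes.

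The promoters of 4 genes with the greatest falls are shown in the same form as above. MVK and MVD encode mevalonate kinase and mevalonate diphosphate decarboxylase, which work upstream of the isoprenoids. LSS encodes lanosterol synthase, which closes the sterol rings, and NSDHL encodes a dehydrogenase that takes part in removing the methyl groups of lanosterol. The windows lie at chr12:109573544-109573793 (plus strand) for MVK, chr16:88663092-88663341 (minus) for MVD, chr21:46228775-46229024 (minus) for LSS and chrX:152830813-152831062 (plus) for NSDHL.
MVK: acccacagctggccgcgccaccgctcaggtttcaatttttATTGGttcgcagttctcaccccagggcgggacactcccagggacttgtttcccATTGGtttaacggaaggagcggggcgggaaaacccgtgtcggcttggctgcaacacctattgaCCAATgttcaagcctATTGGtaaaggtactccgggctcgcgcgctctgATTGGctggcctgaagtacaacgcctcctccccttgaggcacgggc
MVD: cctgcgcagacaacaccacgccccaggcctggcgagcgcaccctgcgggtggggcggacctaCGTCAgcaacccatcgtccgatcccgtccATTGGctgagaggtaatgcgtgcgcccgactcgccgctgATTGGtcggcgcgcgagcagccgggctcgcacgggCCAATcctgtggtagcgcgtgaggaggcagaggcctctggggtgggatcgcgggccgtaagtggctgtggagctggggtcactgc
LSS: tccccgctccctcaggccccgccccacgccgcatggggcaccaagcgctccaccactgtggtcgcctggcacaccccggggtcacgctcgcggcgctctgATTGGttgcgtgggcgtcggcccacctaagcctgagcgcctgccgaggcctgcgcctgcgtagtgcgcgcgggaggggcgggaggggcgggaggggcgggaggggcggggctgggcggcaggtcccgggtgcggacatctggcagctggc
NSDHL: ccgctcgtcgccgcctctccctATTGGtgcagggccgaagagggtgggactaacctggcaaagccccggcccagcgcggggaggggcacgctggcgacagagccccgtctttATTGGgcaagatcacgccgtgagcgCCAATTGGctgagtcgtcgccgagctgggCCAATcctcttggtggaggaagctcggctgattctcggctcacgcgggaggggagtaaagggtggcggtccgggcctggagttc
CCAAT, or ATTGG on the other strand, was found 5 times in the MVK window, 5 times in that of NSDHL, where 2 of the matches overlap, 3 times in MVD and once in LSS. MVD also held a CGTCA, and LSS a CGTCA and a CACGTG in the 50 bases after the start, which are not printed. Counting all windows of 300 bases, CCAAT was present in 6 of the 6 fallen genes with a window, in 0 of the 3 genes that rose at 2 h and in 10 of the 18 genes not called, against 35.7% of all promoter windows. TCACNCNAC was found in HSD17B7 alone among the 6, in none of the 3, in 3 of the 18 and in 2.57% of all windows. TGACGTCA was found in none of these genes and in 1.98% of all windows. CGTCA was found in 3 of the 6, 1 of the 3 and 7 of the 18, against 25% of all windows. These are matches of letters, and binding was not measured.

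**Figure D3:**
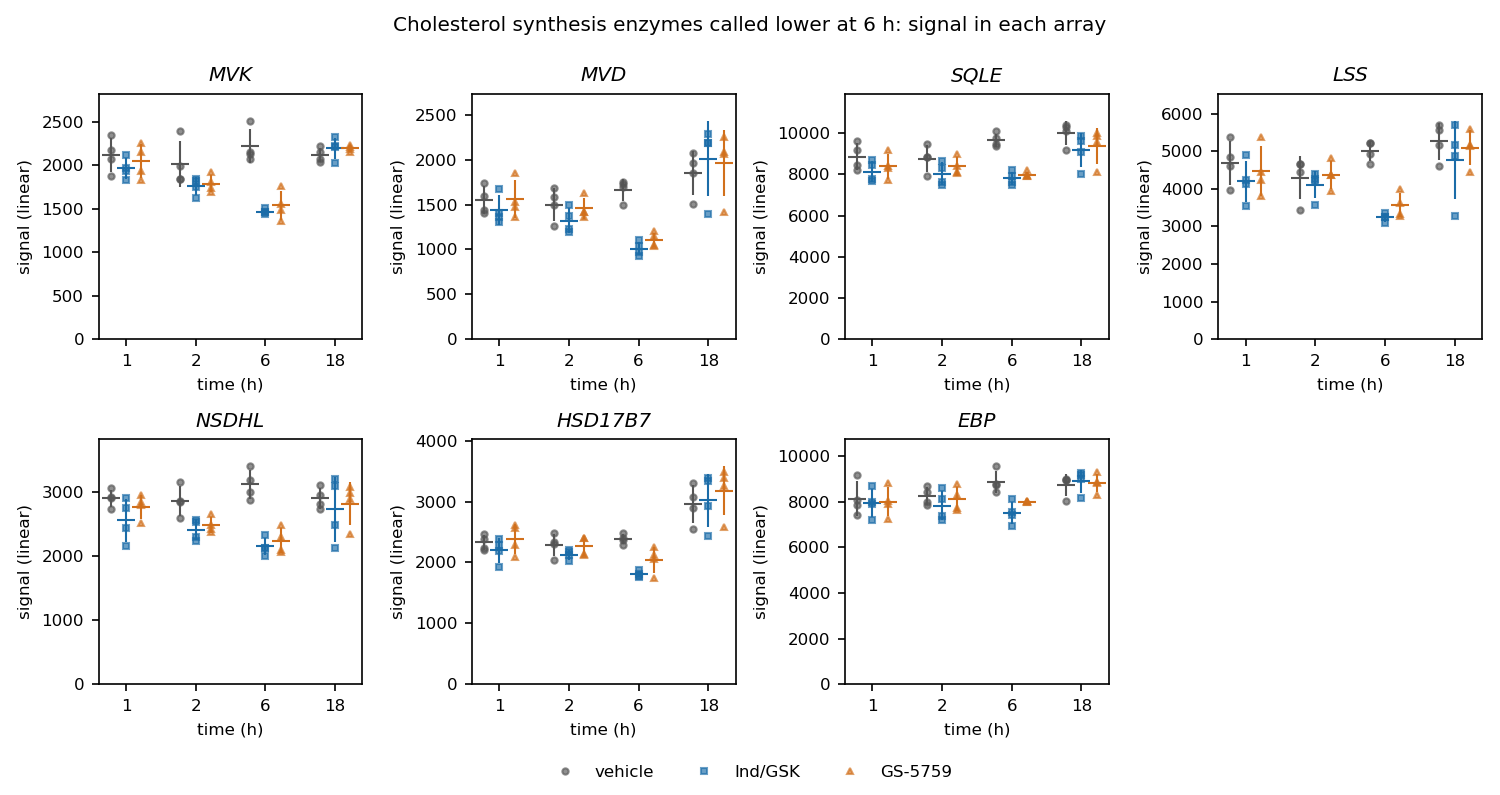
Linear signal of the 7 enzyme genes called lower at 6 h, in each of the 48 arrays against time. Circles are vehicle, squares Ind/GSK and triangles GS-5759, and bars are the mean ± SD of 4 replicates. At 6 h the treated arrays lie below the vehicle arrays in the 7 panels, and at 1 and 18 h the groups overlap.

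MVK, with vehicle signals of 2080, 2130, 2510 and 2160 at 6 h, had the smallest p-value of the set in the 6 h comparison with Ind/GSK. Signals were 1440, 1460, 1510 and 1470 with Ind/GSK and 1560, 1490, 1760 and 1360 with GS-5759. No treated array reached the lowest vehicle array, and replicate 3 was the highest in every group. The log2 difference was -0.58 ± 0.08 with Ind/GSK (0.667-fold, limma adjusted p = 4.22e-06) and -0.52 ± 0.08 with GS-5759 (0.697-fold, adjusted p = 4.9e-05). The second call was lost with only the compared arrays in the fit (adjusted p = 0.0902). The MVK probe sets 204056_s_at and 215649_s_at gave larger differences, -0.88 and -1.03 with Ind/GSK and -0.71 and -0.88 with GS-5759. The dimmest MVK set, 236686_at, with a mean signal of 136, below the tested level, gave 0.01 and -0.20.

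MVD showed the largest fall among the probe sets used. Its vehicle signals at 6 h were 1730, 1490, 1750 and 1690, against 1100, 1040, 922 and 976 with Ind/GSK and 1150, 1040, 1200 and 1050 with GS-5759. The highest treated array, at 1200, lay below the lowest vehicle array. The log2 difference was -0.71 ± 0.13 (0.610-fold, limma adjusted p = 0.000543) and -0.58 ± 0.13 (0.670-fold, adjusted p = 0.0105).

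LSS signals at 6 h were 4670, 4920, 5220 and 5210 with vehicle. They were 3090, 3260, 3250 and 3360 with Ind/GSK and 3340, 3630, 4000 and 3280 with GS-5759, all below the vehicle arrays. These are log2 differences of -0.62 ± 0.12 (limma, adjusted p = 0.0014) and -0.49 ± 0.12 (adjusted p = 0.0246). The GS-5759 call was lost in 6 of 8 fits that left out 1 array, without vehicle replicate 2, 3 or 4 or GS-5759 replicate 1, 2 or 4 (-0.50 to -0.45, adjusted p = 0.0528 to 0.0897), and with only the compared arrays in the fit (adjusted p = 0.0675). The other probe sets of LSS, 211018_at and 211019_s_at, gave -0.62 and -0.67 with Ind/GSK and -0.49 and -0.50 with GS-5759.

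NSDHL signals at 6 h were 3190, 2870, 3400 and 3000 with vehicle, 2000, 2120, 2330 and 2130 with Ind/GSK and 2300, 2090, 2490 and 2070 with GS-5759. Replicate 3 was the highest in each group, and the highest treated array was below the lowest vehicle array. The log2 difference was -0.53 ± 0.10 (limma, adjusted p = 0.000543) and -0.48 ± 0.10 (adjusted p = 0.00363). Neither call held with only the compared arrays in the fit (adjusted p = 0.0594 and 0.0821). Its second probe set, 209279_s_at, gave -0.64 and -0.48. At 2 h NSDHL was lower in every Ind/GSK array than in any vehicle array, as 6.35% of all genes were. The difference, -0.24 ± 0.10, was not called (limma, adjusted p = 0.176). Nor was the change of its response from 2 to 6 h, -0.28 (limma, adjusted p = 0.434).

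SQLE encodes squalene epoxidase, an oxygen-requiring and rate-controlling step of sterol synthesis. At 6 h its signals were 9460, 9380, 9740 and 10100 with vehicle, 7490, 7930, 7620 and 8200 with Ind/GSK and 7990, 7900, 8190 and 7910 with GS-5759. Treated and vehicle arrays did not overlap. With Ind/GSK the log2 difference was -0.31 ± 0.07 (limma, adjusted p = 0.0052), and with GS-5759 -0.27 ± 0.07 (adjusted p = 0.0255). The GS-5759 call was lost without vehicle replicate 3 or 4 or GS-5759 replicate 1, 2 or 4 (-0.27 to -0.25, adjusted p = 0.0581 to 0.0806), and with each array centred on its median (-0.26, adjusted p = 0.0767). With only the compared arrays in the fit neither treatment's call held (adjusted p = 0.116 and 0.0902). The SQLE probe sets 213562_s_at, 213577_at and 1557352_at gave -0.44, -0.52 and -0.25 with Ind/GSK and -0.31, -0.38 and -0.11 with GS-5759.

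HSD17B7, a sterol 3-ketoreductase, had vehicle signals of 2410, 2290, 2370 and 2490 at 6 h. They were 1810, 1870, 1780 and 1760 with Ind/GSK and 2250, 2060, 2130 and 1740 with GS-5759. Both treated groups lay below vehicle, Ind/GSK by -0.40 ± 0.09 (limma, adjusted p = 0.00742) and GS-5759 by -0.23 ± 0.09, which was not called (adjusted p = 0.253). The Ind/GSK call was lost with only the compared arrays in the fit (adjusted p = 0.057). Its only probe set is of the class ending in x_at, which can also detect related sequences.

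EBP encodes a sterol isomerase that works after HSD17B7. Its 6 h signals were 8750, 8710, 8400 and 9540 with vehicle, 7420, 7540, 6930 and 8100 with Ind/GSK and 8000, 7960, 8030 and 8010 with GS-5759. Both groups lay below vehicle, by -0.24 ± 0.07 with Ind/GSK (limma, adjusted p = 0.0283) and -0.14 ± 0.07 with GS-5759 (adjusted p = 0.34). The Ind/GSK call was lost without vehicle replicate 1 or 4 or Ind/GSK replicate 1, 2 or 3 (-0.24 to -0.20, adjusted p = 0.0515 to 0.141), without the 12 arrays numbered 3 (-0.23, adjusted p = 0.068), and with median, 75th percentile or quantile scaling or no filter (adjusted p = 0.0567 to 0.179). It was also lost with only the compared arrays in the fit (adjusted p = 0.215). The EBP probe sets 202735_at, 213789_at and 231320_at gave -0.29, -0.20 and 0.04 with Ind/GSK at 6 h. With GS-5759 they gave -0.17, -0.42 and 0.20, and the last is the dimmest, with a mean signal of 146.

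The remaining sterol enzymes were lower on average without passing the threshold. HMGCS1, which makes HMG-CoA at the entry to the mevalonate pathway, had signals of 13100, 13800, 11600 and 14400 with vehicle at 6 h, 10500, 10800, 8660 and 11000 with Ind/GSK and 11300, 11500, 11100 and 10800 with GS-5759. Its treated arrays all lay below the vehicle arrays, with log2 differences of -0.37 ± 0.12 and -0.24 ± 0.12 (limma, adjusted p = 0.0604 and 0.396). DHCR7, the last enzyme of one route to cholesterol, also had non-overlapping groups, at -0.27 and -0.22 (adjusted p = 0.376 and 0.616). TM7SF2, a sterol reductase, and SC5D, a sterol desaturase, differed by -0.33 and -0.34 with Ind/GSK and by -0.28 each with GS-5759, with overlapping groups. ACAT2, PMVK, IDI1 and FDPS, the other mevalonate genes, differed by -0.22 to -0.11 with Ind/GSK and by -0.19 to -0.08 with GS-5759.

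Among the genes of control, SREBF1, which encodes the SREBP-1 factors, had 6 h signals of 979, 1060, 1440 and 945 with vehicle, 796, 723, 960 and 679 with Ind/GSK and 837, 716, 1220 and 678 with GS-5759. Replicate 3 was the highest in every group, and the groups overlapped. The differences, -0.47 ± 0.26 and -0.37 ± 0.26, were not called (limma, adjusted p = 0.384 and 0.626). SREBF2, SCAP, INSIG1, VLDLR and STARD4 differed by -0.15 to 0.10 with either treatment.

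None of the 7 fatty acid genes was called at 6 h. FASN, fatty acid synthase, differed by -0.22 and -0.12, ACACA, the first committed enzyme, by -0.30 and -0.16, and ACLY, which supplies cytosolic acetyl-CoA, by -0.16 and -0.12. The elongase ELOVL6 differed by -0.26 with each treatment, and the desaturases SCD and FADS2 by -0.23 and -0.25 with Ind/GSK and -0.18 and -0.12 with GS-5759. LPIN1, called at 2 h, was 0.13 and 0.18 above vehicle.

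In the fit with the block, 18 genes fell and 1 rose with Ind/GSK at 6 h, and 11 fell and 1 rose with GS-5759, where 22% and 12.9% of all genes tested were called. The 7 genes above remained called with Ind/GSK and the 5 with GS-5759. Added with both treatments were HMGCS1 (limma, adjusted p = 3.91e-06 and 0.00242), ACAT2 (0.00139 and 0.00691), TM7SF2 (0.000496 and 0.00437), SREBF1 (5.65e-05 and 0.00168) and SCD (0.00536 and 0.0416), and EBP was added with GS-5759 (0.0328). Added with Ind/GSK were SC5D, DHCR7, ACLY, ACACA, ELOVL6 and FADS2 (limma, adjusted p = 0.0075 to 0.0425). Without the 12 arrays numbered 3, 8 genes fell and 1 rose with Ind/GSK and 5 fell and 1 rose with GS-5759, where 4.36% and 2.03% of all genes were called. With only the arrays of each comparison in the fit, the calls left were MVK, MVD and LSS with Ind/GSK and MVD with GS-5759, where 0.126% of all genes were called in each.

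**Figure D4:**
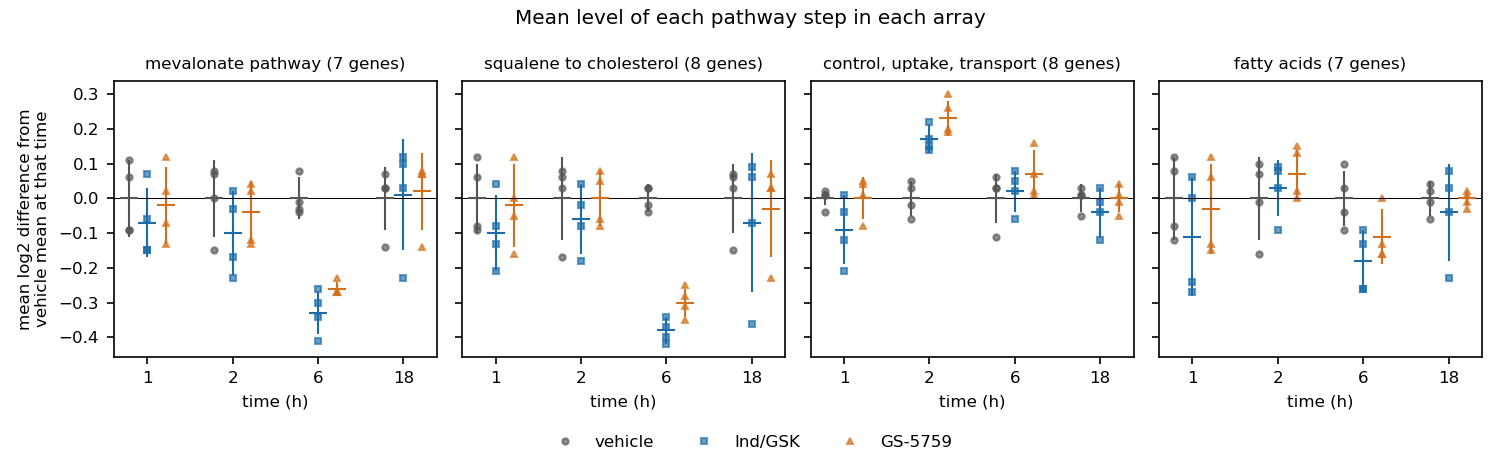
Mean log2 difference from the vehicle mean of the same time, averaged over the genes of each pathway step, for each of the 48 arrays against time. Points are arrays and bars the mean ± SD of 4 replicates. At 6 h the step means were -0.33 ± 0.06 and -0.26 ± 0.02 for the mevalonate genes and -0.38 ± 0.04 and -0.30 ± 0.04 from squalene to cholesterol, for Ind/GSK and GS-5759.

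At 18 h no gene of the set was called. With Ind/GSK 0.0506% of all genes tested were called, and with GS-5759 0%, where 313 of the 11865 genes and 0 of the 30 had an unadjusted p under 0.05. The step means for the mevalonate genes were 0.01 ± 0.16 with Ind/GSK and 0.02 ± 0.11 with GS-5759. MVD signals at 18 h were 2190, 2180, 1390 and 2280 with Ind/GSK and 2250, 2060, 1420 and 2090 with GS-5759, against 1960, 2070, 1510 and 1850 with vehicle, so the groups overlapped and replicate 3 was the lowest in each. MVK signals at 18 h were 2210, 2220, 2030 and 2330 with Ind/GSK, 2190, 2160, 2240 and 2210 with GS-5759 and 2150, 2080, 2220 and 2040 with vehicle, which again overlapped.

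Whether the response itself changed between times was tested on the mean of both treatments minus vehicle. From 1 to 2 h 0.27% of all genes were called. In the set only the NPC1 response was, changing by 0.68 ± 0.15 on the log2 scale (limma, adjusted p = 0.025). This call was lost without vehicle 1 h replicate 1 or 4 or vehicle 2 h replicate 1 (0.63 to 0.66, adjusted p = 0.0597 to 0.0843), and with 75th percentile or quantile scaling (0.59 and 0.63, adjusted p = 0.0764 and 0.0712). Leaving out vehicle 2 h replicate 4 gave 2 called genes. INSIG2 and LPIN1 each changed by 0.42 and VLDLR by 0.33, without being called (limma, adjusted p = 0.127, 0.111 and 0.561). With the replicate block these genes were called (adjusted p = 0.00377, 0.000695 and 0.0158), where 3.06% of all genes were. From 2 to 6 h MVK was called, at -0.37 ± 0.09 (limma, adjusted p = 0.0488), where 0.708% of all genes were. The MVK call was lost in 20 of 24 fits that left out 1 array, from each of the 6 groups concerned (-0.40 to -0.31, adjusted p = 0.054 to 0.163). It was lost too with no filter, with the filter over all probe sets and with only the compared arrays in the fit (adjusted p = 0.0869, 0.0587 and 0.152). LSS and MVD each changed by -0.54 and were not called (adjusted p = 0.0867 and 0.123).

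From 6 to 18 h the responses of MVK and MVD rose and that of NPC1 fell back, where 0.556% of all genes were called. MVK changed by 0.60 ± 0.09 (limma, adjusted p = 0.000392), MVD by 0.73 ± 0.16 (adjusted p = 0.0174) and NPC1 by -0.68 ± 0.15 (adjusted p = 0.0162). The MVD call was lost without vehicle 18 h replicate 3 (0.64, adjusted p = 0.056) and the NPC1 call without vehicle 18 h replicate 1 or 2 (-0.63 each, adjusted p = 0.0592 and 0.0682). Both were lost with only the compared arrays in the fit (adjusted p = 0.107 and 0.118). Leaving out Ind/GSK 18 h replicate 3 gave 6 called genes in place of 3. LSS, NSDHL and HSD17B7 changed by 0.45, 0.43 and 0.38 and were not called (limma, adjusted p = 0.207, 0.0843 and 0.14). With the replicate block the calls numbered 4, 9 and 9 for the 3 intervals, where 3.06%, 6.66% and 7.45% of all genes were called. HMGCS1 and SREBF1 were then called in both later intervals, by -0.22 and -0.40 from 2 to 6 h and by 0.30 and 0.44 from 6 to 18 h. So were MVK, MVD and LSS, the last 2 with limma adjusted p = 0.0118 and 0.00324, then 0.000587 and 0.0157. NSDHL, HSD17B7 and EBP were called with the block from 6 to 18 h only (limma, adjusted p = 0.0135, 0.0217 and 0.0159). Without the arrays numbered 3 the calls were 1, 3 and 4, where 0.48%, 0.733% and 0.834% of all genes were called.

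GS-5759 and Ind/GSK were compared at 10 nM and at matched times, for 30 genes at each of 4 times and in the mean over times. None was called at 1, 2, 6 or 18 h, nor in the mean, where 0%, 0%, 0%, 0% and 0.0759% of all genes tested were called. Unadjusted, 709, 194, 395 and 41 of the 11865 genes had p under 0.05 at the 4 times. At 2 h the difference GS-5759 minus Ind/GSK was 0.07 for NPC1, with a 95% interval of -0.17 to 0.31, 0.05 for INSIG2 (-0.15 to 0.24) and 0.01 for LPIN1 (-0.18 to 0.20). At 6 h it was 0.06 for MVK (-0.09 to 0.22), 0.14 for MVD (-0.13 to 0.40), 0.13 for LSS (-0.12 to 0.38) and 0.06 for NSDHL (-0.14 to 0.25). The greatest at 6 h was 0.17 for HSD17B7 (-0.02 to 0.36), and its mean over times was 0.11 (0.02 to 0.21), with an adjusted p of 0.211 by limma. The widest interval over the 30 genes and 4 times was that of SREBF1 at 1 h, 0.15 (-0.39 to 0.68), so the 2 treatments are not shown to act alike.

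Averaged over times, GS-5759 was above Ind/GSK for 30 of 30 genes, by a median of 0.06. That is also the median of all genes tested, 10346 of 11865 of which were higher with GS-5759, so the direction is that of the arrays as a whole. The direction depended on the scaling. With each array centred on its median, 28 of the 30 genes were still higher with GS-5759. The median was then 0.044 for the 30 and for all genes, 9869 of 11865 of which were higher. With each array centred on its 75th percentile 11 of the 30 genes were higher with GS-5759, with a median of -0.009 for the 30 and for all genes. With quantile normalization 18 of 30 were higher, with medians of 0.011 and 0.002. The median of all genes for Ind/GSK against vehicle at 1 h, -0.106, became 0.015 with 75th percentile centring and -0.077 with median centring. With the replicate block 1 gene was called in the mean over times, SREBF2 at 0.12 (limma, adjusted p = 0.0138), where 19.7% of all genes were called.

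In vehicle arrays 4 genes of the set were called over time in culture, VLDLR, STARD4, HSD17B7 and SCD. No gene was called between 1 and 2 h or between 2 and 6 h, where 2.72% and 0.413% of all genes tested were. From 6 to 18 h VLDLR, STARD4 and HSD17B7 rose and none fell, where 9.79% of all genes rose and 4.36% fell, so 3 of 30 is close to the share of all genes. From 1 to 18 h VLDLR, HSD17B7 and SCD rose, where 2.51% of all genes did, and none fell, where 3.21% did.

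VLDLR encodes the very low density lipoprotein receptor. Its vehicle signals were 745, 643, 787 and 721 at 1 h, 561, 486, 635 and 602 at 2 h, 590, 519, 783 and 714 at 6 h, and 1060, 1130, 1140 and 1190 at 18 h. Every 18 h array was above every earlier one, and replicate 2 was the lowest at the first 3 times. The log2 difference from 6 to 18 h was 0.80 ± 0.12 (1.74-fold, limma adjusted p = 8.27e-06) and from 1 to 18 h 0.64 ± 0.12 (adjusted p = 0.000576). Treated arrays had much the same levels, with 18 h means of 1080 ± 56.9 with Ind/GSK and 1110 ± 92.4 with GS-5759 beside 1130 ± 53.1 with vehicle (SD, n = 4).

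STARD4 encodes a protein that carries cholesterol through the cytosol. In vehicle arrays it had signals of 3910, 3490, 2930 and 3950 at 6 h and 6100, 6020, 4480 and 6200 at 18 h. The groups did not overlap, replicate 3 was the lowest at both times, and the log2 difference was 0.67 ± 0.16 (limma, adjusted p = 0.00323).

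HSD17B7, lower at 6 h with Ind/GSK, was higher in vehicle arrays at 18 h, with signals of 3300, 2900, 2550 and 3080. These lie above all 1 h arrays (2210 to 2460) and all 6 h arrays. The log2 difference was 0.30 ± 0.09 from 6 h and 0.34 ± 0.09 from 1 h (limma, adjusted p = 0.0246 and 0.0228). The first call was lost without vehicle 18 h replicate 1 or 4 or 6 h replicate 2 (0.25 to 0.28, adjusted p = 0.0737 to 0.105) and with 75th percentile or quantile scaling (adjusted p = 0.0523 and 0.0501). The second was lost without 1 h replicate 1 or 3 or 18 h replicate 1 or 4 (0.28 to 0.32, adjusted p = 0.0672 to 0.105). Neither held with only the compared arrays in the fit (adjusted p = 0.0675 and 0.11).

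SCD, stearoyl-CoA desaturase, had vehicle signals of 8560, 8530, 9450 and 10300 at 1 h and 10700, 10800, 10300 and 11800 at 18 h, which touch at 10300 when rounded but did not overlap. The difference was 0.25 ± 0.08 (limma, adjusted p = 0.0486). It was lost in 6 of 8 fits that left out 1 array, without replicate 1, 2 or 3 at 1 h or replicate 1, 2 or 4 at 18 h (0.21 to 0.26, adjusted p = 0.0677 to 0.18), without the arrays numbered 3 (0.29, adjusted p = 0.0529), and with no filter, the filter over all probe sets or median scaling (adjusted p = 0.0582 to 0.0857), and with only the compared arrays in the fit (adjusted p = 0.185). With the replicate block 3 genes were called from 1 to 2 h, 8 from 6 to 18 h and 10 from 1 to 18 h, where 17.9%, 34.3% and 23.3% of all genes were. The 10 included STARD4, FDPS, SQLE, ELOVL6 and INSIG2. Without the arrays numbered 3, 5 genes were called from 6 to 18 h and 4 from 1 to 18 h, where 17.1% and 7.5% of all genes were, so the first count is close to the share of all genes.

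**Figure D5:**
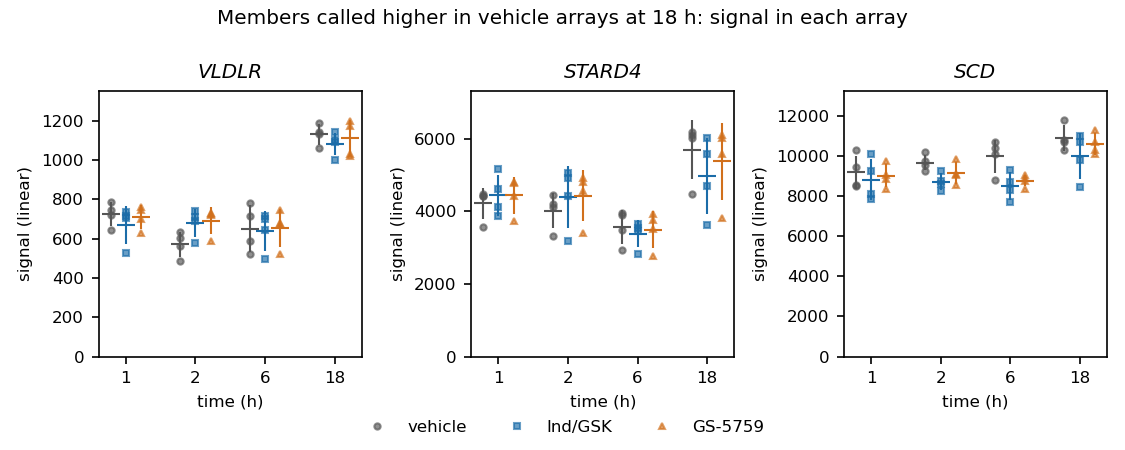
Linear signal of VLDLR, STARD4 and SCD in each of the 48 arrays against time, with vehicle (circles), Ind/GSK (squares) and GS-5759 (triangles). Bars are the mean ± SD of 4 replicates. All vehicle arrays at 18 h lie above the 6 h vehicle arrays for VLDLR and STARD4. At 18 h the lowest treated arrays lie below the lowest vehicle array for STARD4 (3630 and 3820 against 4480) and SCD (8450 and 10100 against 10300). The treated and vehicle groups overlap there, and neither gene was called against vehicle.

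Of 48 further genes of sterol and lipid metabolism, listed with earlier results known, 42 had a probe set of their own and 38 were tested. At 6 h with Ind/GSK 2 of the 38 fell and 1 rose, where 5.01% of all genes were called. The 2 were GGPS1, geranylgeranyl diphosphate synthase, at -0.19 ± 0.06 (limma, adjusted p = 0.0403), and SLC25A1, the mitochondrial citrate carrier, at -0.26 ± 0.07 (adjusted p = 0.0319). PNPLA2, adipose triglyceride lipase, rose by 0.34 ± 0.10 with Ind/GSK and 0.39 ± 0.10 with GS-5759 (limma, adjusted p = 0.0372 and 0.0253), and was the only one of the 38 called with GS-5759 at 6 h, where 1.88% of all genes were. None of the 38 was called with either treatment at 1, 2 or 18 h. For Ind/GSK and GS-5759, 2.47% and 0.32% of all genes were called at 1 h and 0.0506% and 0% at 18 h. At 2 h 534 and 362 of the 11865 genes tested were called. In vehicle arrays from 6 to 18 h GGPS1, ERLIN1, OSBP and TECR rose, by 0.16 to 0.35, and the desaturase FADS3 fell by 0.54 ± 0.15 (limma, adjusted p = 0.0133), where 9.79% of all genes rose and 4.36% fell. Their median log2 difference at 6 h was -0.07 with Ind/GSK and -0.01 with GS-5759, beside -0.05 and 0 for all genes. With the replicate block 9 fell and 3 rose with Ind/GSK and 4 fell and 4 rose with GS-5759 at 6 h, where 22% and 12.9% of all genes were called.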

How the data were processed

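Total RNA from 48 BEAS-2B samples had been hybridised to Affymetrix U133 Plus 2.0 arrays. The authors deposited 1 linear intensity per probe set and array, and the submitters' processing notes name PLIER and Affymetrix Expression Console. Versions and the normalization between arrays are not given in the sources used here. They were analysed as log2(value + 16). Of 54675 probe sets, 41091 carried 1 gene symbol in the platform annotation, and 41037 of these symbols were brought to current ones through gene identifiers. The brightest such probe set stood for each of 19775 genes, and the 11865 genes above the 40th percentile of mean signal (log2 7.41) were tested. All 12 group means were fitted in 1 model over 48 arrays with limma 3.58.1 under R 4.3.3 (eBayes, no trend; residual degrees of freedom 36, prior 2.359), with Benjamini-Hochberg adjustment within each comparison. The fit was tested on simulated data with noise drawn independently for each array. Such data hold no deviation shared by replicate number, so the test does not cover that feature of these arrays. The number of arrays, 4 a group, limits the precision.

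Genes were named if called in a comparison with vehicle or in vehicle over time; other named genes were given as members of the set. The members, lists and tests were chosen with earlier results of these data known. Replicate numbers come from the sample titles. Same-numbered samples deviated together in all 64 pairs of the 16 comparisons (correlation of deviations from group means 0.3 to 0.95). A fit with the number as a block was therefore made and its counts are given. Some differently numbered samples also deviated together, with correlations of up to 0.77. Alternatives were the pseudocount, the filter, array scaling, the block, a trend, the arrays in the fit, other probe sets and leaving out arrays. The filter over all probe sets, median centring and leaving out the arrays numbered 3 were chosen after seeing the data. Promoter sequences came from RefSeq (GRCh38.p14), which matched 29 of the 33 genes.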

Additional observations from a re-analysis of the deposited data

Results flagged for a closer look

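Within groups of 4, a sample was listed here when its gap to the nearest other, divided by the range of the group, passed Dixon's 95% value. Of 156 groups tested for 13 genes, 11 were listed, and chance lists about 1 in 20. The arrays numbered 3 were low in 7 of them. These were MVD with Ind/GSK at 18 h (1390, others 2180 to 2280), EBP with vehicle at 18 h (8010, others 8940 to 9000), INSIG2 with GS-5759 at 2 h (1350, others 1690 to 1750), STARD4 with vehicle at 1 h (3580, others 4410 to 4480) and at 18 h (4480, others 6020 to 6200), and NPC1 with vehicle at 18 h (2570, others 3540 to 3660). NPC1 with Ind/GSK at 18 h was low in the same number (2830, others 3690 to 3880).

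NPC1 replicate 1 was high with Ind/GSK at 6 h (5590, others 4100 to 4180). LSS replicate 1 was low with vehicle at 2 h (3440, others 4460 to 4660). VLDLR replicate 2 was low with Ind/GSK at 1 h (528, others 702 to 735) and with GS-5759 at 2 h (590, others 719 to 730).

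Responses to treatment, on the log2 scale and as the mean of both treatments, differed between times in 5 tests of the difference by limma. MVK changed by -0.37 from 2 to 6 h and by 0.60 from 6 to 18 h. MVD changed by 0.73 from 6 to 18 h. NPC1 changed by 0.68 from 1 to 2 h and by -0.68 from 6 to 18 h.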

How the results depend on the processing

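Of 31 called log2 differences, none changed sign when the processing changed or an array was left out; all 31 kept their call under the replicate block, both other pseudocounts and the trend, while 20 of the 31 lost it with only the arrays compared in the fit. These were both treatments' calls for NPC1, SQLE and NSDHL at 6 h and INSIG2 and LPIN1 at 2 h, HSD17B7 and EBP with Ind/GSK and MVK and LSS with GS-5759 at 6 h, MVK from 2 to 6 h, MVD and NPC1 from 6 to 18 h, both HSD17B7 calls in vehicle and SCD. Other probe sets gave 7 sign changes in 52 values: MVK 236686_at with Ind/GSK at 6 h (0.01), from 2 to 6 h (0.11) and from 6 to 18 h (-0.07), EBP 231320_at with Ind/GSK at 6 h (0.04), and NPC1 238873_at at 2 h with Ind/GSK (-0.21), with GS-5759 (-0.09) and from 1 to 2 h (-0.08). Of the remaining values, 20 kept the sign but counted as weaker and 25 counted as unchanged.

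Counts of called genes moved most with the replicate block, to 1 and 6 with Ind/GSK at 1 and 2 h, 5 with GS-5759 at 2 h, 19 and 12 with Ind/GSK and GS-5759 at 6 h, 1 in the mean over times of GS-5759 against Ind/GSK, 4, 9 and 9 for the 3 changes of response in time order, and 3, 8 and 10 in vehicle from 1 to 2, 6 to 18 and 1 to 18 h; the block changed no other call. With only the arrays compared in the fit, which leaves fewer degrees of freedom, counts were 1 and 1 at 2 h and 3 and 1 at 6 h for Ind/GSK and GS-5759, 2 and 1 for the changes of response from 2 to 6 and 6 to 18 h, and 1 in vehicle from 1 to 18 h. The change from 1 to 2 h gave 0 with 75th percentile or quantile scaling, that from 2 to 6 h gave 0 with no filter and with the filter over all probe sets, and that from 6 to 18 h gave 5 with 75th percentile scaling; the cause was not tested. Leaving out arrays, singly or all those numbered 3, gave ranges of 0 to 2, 0 to 3 and 2 to 6 for these changes, 2 to 5 in vehicle from 6 to 18 h and 1 to 4 from 1 to 18 h. At 2 h it gave 2 to 3 with each treatment, and at 6 h 7 to 9 with Ind/GSK and 4 to 6 with GS-5759. Signal over background was not measured here; the probe sets with a changed sign had mean signals of 136 (MVK), 146 (EBP) and 18.4 (NPC1), and the NPC1 sets at 116 and 144 kept the sign.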
